A study of Mus musculus with 27 samples.

Results

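The proteasome genes of mouse liver were followed through refeeding after a fast. The members were the genes whose symbol is Psma, Psmb, Psmc, Psmd, Psme, Psmf or Psmg followed by a number, with at least 10 normalised read counts in at least 3 of 27 libraries. Of 48 genes with such a symbol, 47 met this minimum, among 15932 genes that met it in a table of 45706. The one that did not was Psmb11, a catalytic subunit of the thymus, whose highest value was 1.

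Liver RNA was sequenced in 9 groups of 3 libraries from mice labelled strain C57/BLN6 and genotype WT, whose age and sex are not used here. Every group, the fasted one included, had gone without food for 16 h. After that, 4 groups were refed for 30, 60, 120 or 240 min, and 4 groups were given caged food, which they could sense but not eat, for the same times. The last group was taken after the fast alone, and it serves as the baseline for all 8 others. The design text speaks of biological replicates.

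The proteasome degrades proteins tagged with ubiquitin. Its core particle is a barrel of alpha rings, which gate the entrance, and beta rings, which hold the catalytic sites. A regulatory particle caps the barrel: its base of ATPases unfolds substrates, and its lid removes the ubiquitin. Dedicated chaperones assemble both particles and are not part of the finished complex. In immune cells, and in other cells after interferon, the catalytic subunits Psmb8, Psmb9 and Psmb10 replace the standard ones. In liver, the proteasome works beside autophagy in the protein turnover of the fasted state.

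Per kilobase of exon length, the most abundant member over the 27 libraries was Psma6, a subunit of the alpha ring, at a mean of 3979 normalised read counts per kb. Psmb4, a beta ring subunit without a catalytic site, followed at 3760 per kb, and the ATPase Psmc5 at 2753 per kb. The lowest of the 47 was Psma8, the alpha subunit of the testis, at 10.3 per kb. Among catalytic subunits, the standard Psmb6 stood at 2693 per kb and the standard Psmb5 at 1101 per kb, while the immune Psmb10 had 526, Psmb8 203 and Psmb9 177 per kb. These values depend on the lengths, which join all annotated exons of a gene. They were 1872 bases for Psmb6, 899 for Psmb5, 1705 for Psmb10, 3381 for Psmb8 and 3660 for Psmb9. Before division by length, the mean counts were 5042 for Psmb6, 990 for Psmb5, 897 for Psmb10, 686 for Psmb8 and 648 for Psmb9. Together the members made up 0.293% to 0.436% of a library's normalised counts.

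Library totals were 40654573 to 50037562 normalised read counts. Reads before scaling are not given, so the raw depth is unknown. Some libraries stood apart. The first caged food library of 30 min was low for 41 of 47 members, which lay below every fasted library there. How many of all genes did so was not counted. Its 31 standard core and regulatory subunits averaged 0.41 below the fasted mean on the log2 scale. The second caged food library of 60 min was high in white cell markers, and the first refed library of 30 min in pancreatic ones, with summed acinar markers of 5160 against 13 to 33 in fasted livers. The third caged food library of 120 min had also been set apart in earlier work on these data. At 240 min, the treatment label of the third refed and of the first caged food library names the other group than the title. Titles were followed. A score over 200 genes, picked at 120 min and signed so that refed is positive, was 0.77, 0.57 and 0.50 in the refed libraries of 240 min in replicate order and -0.64, -0.61 and -0.59 in the caged food ones. Grouped by the treatment labels instead, limma called no member at 240 min, and 0 genes in all between refed and fasted livers. The 6 hepatocyte markers had summed levels of 3562253 to 6274633 per library, far above every other marker list. Fewer cells of a type and less RNA per cell cannot be told apart in whole liver.

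Called members numbered 0, 1, 2 and 9 of 47 at 30, 60, 120 and 240 min of refeeding against fasted livers. Over all genes the called share was 1.63%, 11%, 14.1% and 24.3%, so it grew as well. At 240 min, 9 of 47 members differed between refed and fasted livers in limma at an adjusted p under 0.05 over all genes tested: 7 rose and 2 fell. Of all genes tested, 24.3% were called in this comparison, 12.9% higher and 11.4% lower, so the share of called members was no larger than the background. The direction was less even: 39 of 47 members had a positive log2 fold change, which is 83.0%, beside 50.6% of all genes. The median was 0.15 for the members and 0.0048 for all genes. Members shifted together within libraries, so their signs are not independent of each other. In replicate order, the standard subunits averaged 0.27, 0.20 and 0.012 above the fasted mean in refed livers of 240 min, on the log2 scale. At 120 min 38 of 47 members had a positive value against fasted livers, both in refed livers (median 0.079) and in caged food livers (median 0.063). The caged food count was 18 without the second caged food library of 120 min. Markers of some other liver cells moved in refed livers of 240 min against fasted livers. Of 6 sinusoidal endothelium markers 0 had a positive value (median -0.25, 2 called lower), and of 6 stellate cell markers 1 had one (median -0.39, 2 called lower). Their summed levels were 15182 to 15635 and 10964 to 14054 in refed livers of 240 min, against 16876 to 19652 and 14912 to 16245 in fasted livers. Other lists did not fall: Kupffer cell sums were 15415 to 16963 in refed livers of 240 min, against 13411 to 16484 in fasted livers. White cell sums were 836 to 970 against 609 to 846, and bile duct cell sums 1496 to 1586 against 1405 to 1573. No marker of these lists was at 0 throughout a group, and the part of cell makeup in the members' values was not tested. Both the lowest log2 fold change among the members at 240 min, that of Psmd9, and the highest, that of Psmd5, belonged to assembly chaperones of the regulatory particle. Without the first refed library of 240 min, 5 members were called against fasted livers.

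Psmd9, a chaperone that binds the ATPases while the base of the regulatory particle is assembled, fell. It had 2097, 2223 and 2094 normalised read counts in refed livers of 240 min, against 3566, 3363 and 3603 in caged food livers of that time and 3533, 3596 and 3585 in fasted livers. All 3 refed values lay below every caged food and fasted value. This was a log2 fold change of -0.74 ± 0.10 (SE) against fasted livers (limma, adjusted p = 1.5e-05), or 0.599 times the fasted level, and of -0.72 against caged food livers (adjusted p = 1.8e-05).

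Psmd5, another chaperone of the same base, went the other way. It had 2582, 2246 and 2060 normalised read counts in refed livers of 240 min, against 1595, 1534 and 1583 in caged food livers and 1647, 1602 and 1455 in fasted livers. Every refed library was above every library of both other groups. The log2 fold change was 0.55 ± 0.099 (SE) over fasted livers (limma, adjusted p = 2.8e-04) and 0.54 over caged food livers (adjusted p = 2.6e-04). The third chaperone of the base, Psmd10, was not called, so the list held 1 rise and 1 fall among 3 members. Against fasted livers, 12.9% of all genes were called higher and 11.4% lower.

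**Figure D1:**
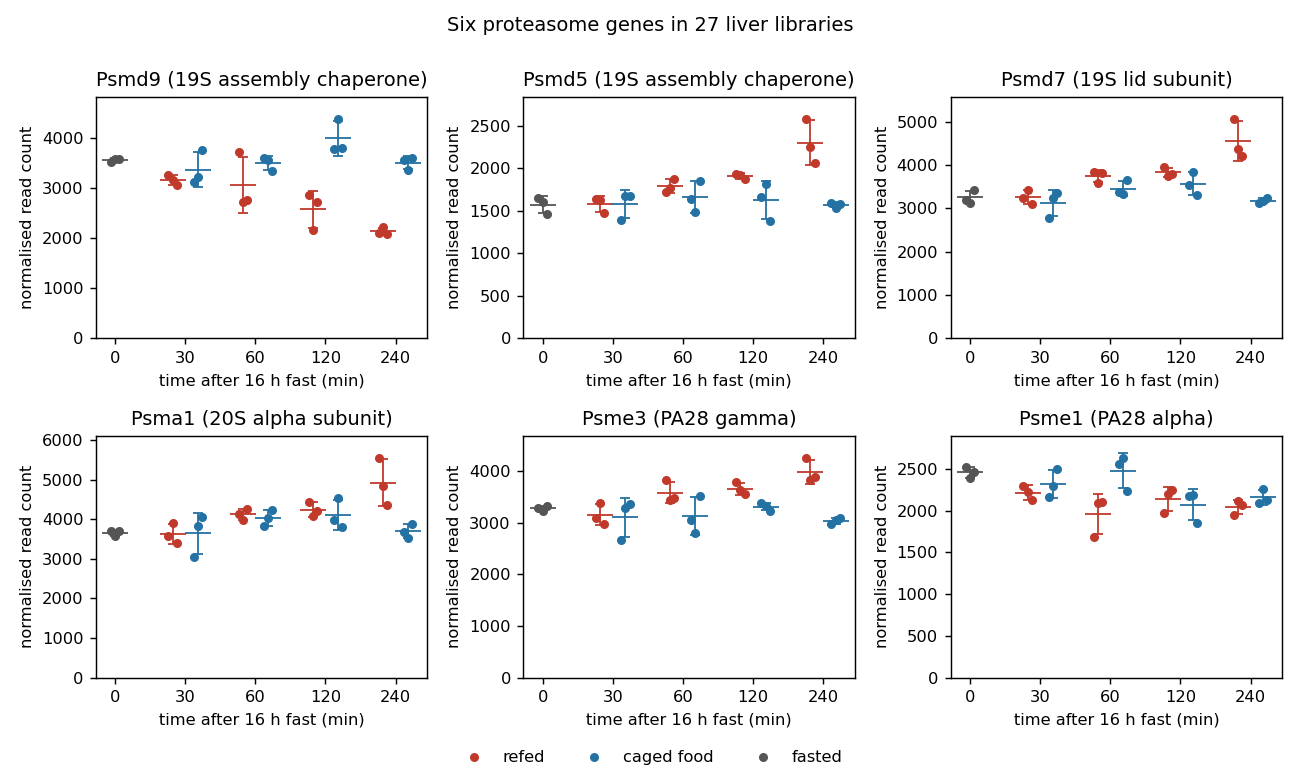
Normalised read counts (vertical axis, from 0) of 6 proteasome genes in each library, with points for libraries and bars for the group mean and SD of 3 libraries, against time after the fast, fasted livers at 0 and times evenly spaced. In refed livers of 240 min Psmd9 sits between 2094 and 2223, below all fasted livers, and Psmd5 between 2060 and 2582, above all of them.

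Psmd9 was called at 120 min as well, where Psmd5 was not (log2 fold change 0.28 over fasted livers, limma adjusted p = 0.0589). At 120 min Psmd9 had 2859, 2166 and 2725 normalised read counts in refed livers, against 3794, 4395 and 3807 in caged food livers, with no overlap. The log2 fold change was -0.48 ± 0.10 (SE) against fasted livers (limma, adjusted p = 0.00267) and -0.64 against caged food livers (adjusted p = 2.2e-04). At 60 min the refed libraries were split, with 3719, 2722 and 2764, and at 30 min they had 3269, 3170 and 3057. The 30 min values lay below all 3 fasted livers, but the gene was not called at either time (log2 fold change -0.23 at 60 min and -0.17 at 30 min, limma adjusted p = 0.171 and 0.575).

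Psmd9 lies on chromosome 5 at 123169413 to 123250131 of GRCm38, on the plus strand, and this gene model spans the gene Hpd on the minus strand, an enzyme of tyrosine breakdown that is far more abundant in liver. The annotated exons of Psmd9 and Hpd share 0 bases. Hpd had log2 fold changes of -0.28 at 120 min and -0.17 at 240 min against fasted livers, with limma adjusted p of 0.182 and 0.385. Against caged food livers it had -0.37 at 120 min (unadjusted p = 0.0104, adjusted p = 0.0751), -0.13 at 240 min (adjusted p = 0.534) and -0.16 averaged over the 4 times (adjusted p = 0.0759). The model shares 1849 exon bases with Gm26745, a noncoding gene listed at 0 in all 27 libraries. The library kit keeps the strand, but whether the counting used it is not given in the sources used here, and the part of Hpd reads in the Psmd9 values was not tested.

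Psmd7, a lid subunit that pairs with the deubiquitinase Psmd14, rose. It had 5074, 4362 and 4209 normalised read counts in refed livers of 240 min, against 3117, 3180 and 3235 in caged food livers and 3202, 3127 and 3431 in fasted livers. No refed library overlapped either other group. The log2 fold change was 0.48 ± 0.077 (SE) over fasted livers (limma, adjusted p = 7.2e-05), or 1.39-fold, and 0.51 over caged food livers (adjusted p = 2.7e-05). At 120 min it was already the only member called higher than in fasted livers, by 0.24 ± 0.077 (SE, limma adjusted p = 0.0403), with 3945, 3750 and 3806 in refed livers. That call was lost without fasted replicate 1 or 2 or any 1 of the refed replicates, where the adjusted p was 0.0719 to 0.148.

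The lid and scaffold subunits around Psmd7 mostly had positive values without being called. Of 11 regulatory particle subunits that are not ATPases, 10 had a positive log2 fold change between refed livers of 240 min and fasted livers, with a median of 0.19, and Psmd7 alone was called. Over all genes 50.6% had a positive value and 24.3% were called. Psmd14, the deubiquitinase of the lid, had 3383, 3185 and 2684 normalised read counts in refed livers of 240 min, against 2340, 2468 and 2388 in fasted livers. Its refed values lay above all fasted ones, and its log2 fold change of 0.36 missed the threshold at an adjusted p of 0.0726 in limma. The scaffold Psmd11 had 0.16 (adjusted p = 0.308).

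All 6 ATPases of the base had positive log2 fold changes at 240 min over fasted livers, and 1 was called. Of all genes, 50.6% had a positive value in this comparison and 24.3% were called. Psmc2 had 6076, 5901 and 4891 normalised read counts in refed livers of 240 min, against 3999, 4188 and 4197 in caged food livers and 4460, 4324 and 4641 in fasted livers. The refed values did not overlap with either group. The log2 fold change was 0.32 ± 0.11 (SE) over fasted livers (limma, adjusted p = 0.0336) and 0.44 over caged food livers (adjusted p = 0.00414). The call against fasted livers was lost without any 1 of the fasted replicates, or without refed replicate 1 or 2, with adjusted p of 0.0544 to 0.153. Psmc4, another ATPase, had 0.14 over fasted livers and was not called (limma, adjusted p = 0.478).

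In the core particle, 2 of 8 alpha ring subunits were called at 240 min against fasted livers, a share near the 24.3% of all genes. Psma1, an alpha ring subunit, had 5549, 4844 and 4368 normalised read counts in refed livers of 240 min, against 3679, 3534 and 3876 in caged food livers and 3706, 3577 and 3693 in fasted livers. All refed libraries were the higher ones. The log2 fold change was 0.42 ± 0.093 (SE) over fasted livers (limma, adjusted p = 0.00178) and 0.41 over caged food livers (adjusted p = 0.00208). Psma4, also of the alpha ring, had 3163, 3063 and 2748 in refed livers of 240 min, against 2579, 2476 and 2675 in fasted livers. It rose by 0.21 ± 0.078 (SE) just under the threshold (limma, adjusted p = 0.0486), and this call was lost without any 1 of the fasted replicates, or without refed replicate 1 or 2, with adjusted p of 0.0623 to 0.195.

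None of 3 standard catalytic and 4 non-catalytic beta subunits was called by limma at 240 min, although all 7 had a positive log2 fold change, between 0.021 and 0.16, and none had an unadjusted p under 0.05. Among all genes tested, 24.3% were called there and 50.6% had a positive value. Psmb5, the chymotrypsin-like site that many proteasome inhibitors bind, had 1086, 1147 and 989 normalised read counts in refed livers of 240 min, against 1018, 1009 and 1042 in fasted livers. The groups overlapped, with a log2 fold change of 0.068 (adjusted p = 0.807). Whether Psma1 and the catalytic subunits differed in their response was not tested.

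**Figure D2:**
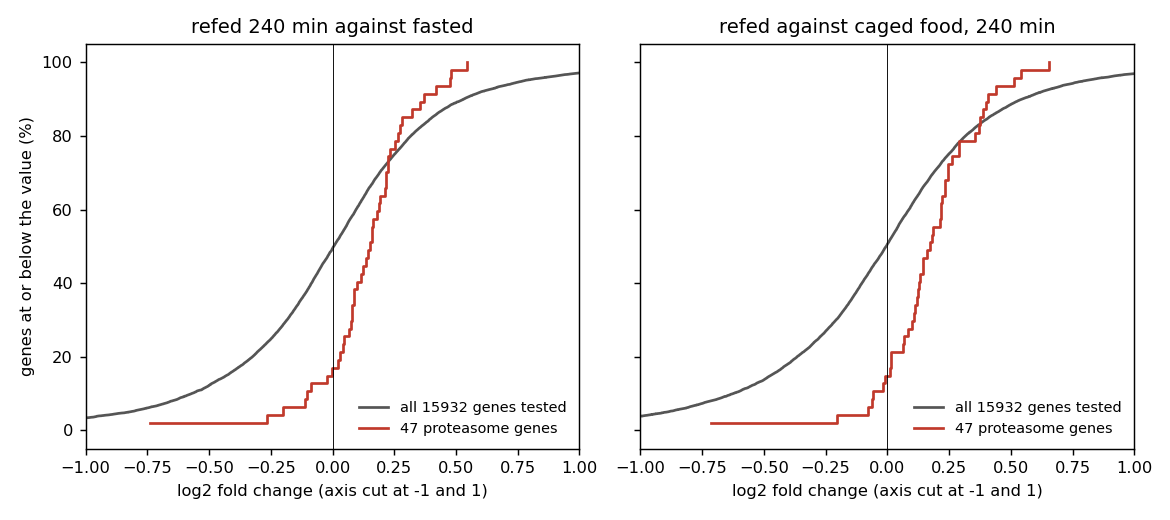
Cumulative share of genes (vertical axis, percent) at or below each log2 fold change (horizontal axis) for the 47 members in red and all 15932 genes tested in grey, in refed against fasted and refed against caged food livers of 240 min. The members' curve crosses 50% near their medians of 0.15 and 0.17, and its left end is Psmd9, at -0.74 and -0.72.

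None of the 3 immune subunits was called at 240 min, and 2 of them had a positive log2 fold change over fasted livers, with a median of 0.13. Of all genes, 24.3% were called and 50.6% had a positive value. Psmb10 had 1040, 966 and 927 normalised read counts in refed livers of 240 min, against 811, 802 and 884 in fasted livers. These values did not overlap, but the log2 fold change of 0.23 was not called after adjustment over all genes (limma, adjusted p = 0.257). Psmb8 had -0.088 (adjusted p = 0.770) and Psmb9 0.13 (adjusted p = 0.633). Psmb9 shares 212 exon bases with Tap1 on the other strand, a peptide transporter of antigen presentation that was not called either.

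Immune subunit levels varied between libraries of the same group. In caged food livers of 60 min, Psmb8 had 838, 1086 and 518 normalised read counts, in replicate order. The summed level of 12 white cell markers, all of them found, ran over 565, 2600 and 705 in the same libraries, against 609 to 846 in fasted livers, and no marker was at 0 throughout a group. Kupffer cell markers summed to 12759, 33560 and 14652 there, against 13411 to 16484 in fasted livers. The library highest in these markers was highest in Psmb8 and also in Psmb10, with 1265. Its Psmb9, 748, lay below the 868 of the third refed library of 120 min. The third caged food library of 60 min was lowest in Psmb8 and in Psmb9, with 393, while both its marker sums lay within the fasted ranges. The part of immune cells in these levels was not tested. Between refed and caged food livers of 120 min Psmb10 had a log2 fold change of 0.36 (limma, adjusted p = 0.114), and without the libraries standing apart, of which 1 is in that comparison, it was called at 0.47 (adjusted p = 0.015). Leaving out only that library, the third caged food one of 120 min, did not call it.

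**Figure D3:**
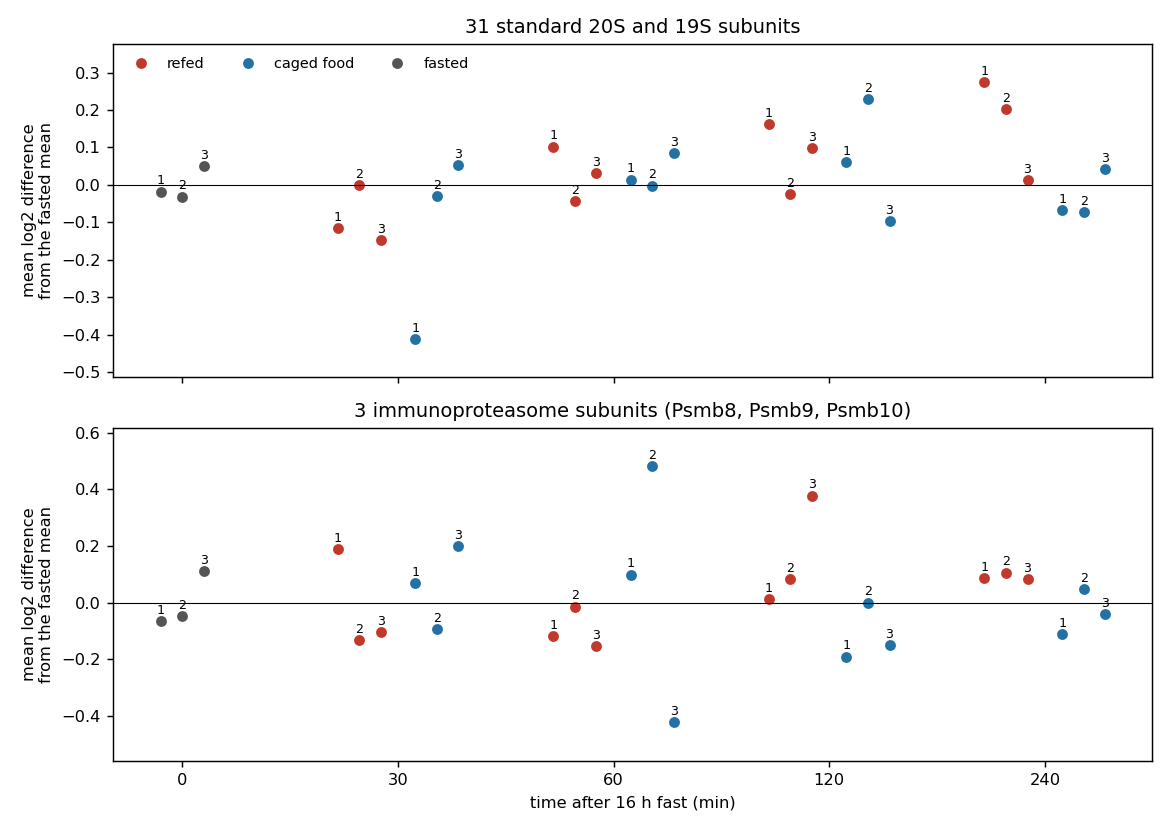
Mean log2 difference from the fasted mean (vertical axis) in each library, numbered by replicate, against time after the fast, for the 31 standard core and regulatory subunits above and the 3 immune subunits below. Among standard subunits replicate 1 of caged food at 30 min lies at -0.41, and among immune subunits replicates 2 and 3 of caged food at 60 min lie at 0.48 and -0.42.

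The activator caps, which open the core without ATP, split. Psme1, which forms a cap with Psme2, fell: it had 1687, 2091 and 2102 normalised read counts in refed livers of 60 min, against 2564, 2633 and 2239 in caged food livers and 2526, 2388 and 2461 in fasted livers, with no overlap. It was the only member called at 60 min, with a log2 fold change of -0.33 ± 0.087 (SE) against fasted livers (limma, adjusted p = 0.0130) and of -0.34 against caged food livers (adjusted p = 0.0111). At that time 11% of all genes were called against fasted livers, 3.75% lower, and 10.9% against caged food livers, 4.18% lower. Without the first refed library of 60 min, the lowest, the adjusted p was 0.0971 against fasted and 0.0964 against caged food livers, and without the second caged food library it was 0.0564 against caged food livers.

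At 240 min, Psme1 had 1952, 2121 and 2068 normalised read counts in refed livers, against 2093, 2263 and 2125 in caged food livers, which overlapped with them. It was called against fasted livers, at -0.26 (limma, adjusted p = 0.0285), but not without fasted replicate 1 or 3 or refed replicate 1 or 3 (adjusted p = 0.0535 to 0.117), while the difference from caged food livers was -0.078 (adjusted p = 0.555). Its partner Psme2 was not called in any comparison.

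Psme3, the nuclear cap subunit, rose instead. It had 4250, 3815 and 3879 normalised read counts in refed livers of 240 min, against 2973, 3043 and 3092 in caged food livers and 3275, 3218 and 3327 in fasted livers. Every refed library was higher than both other groups, by a log2 fold change of 0.28 ± 0.083 (SE) over fasted livers (limma, adjusted p = 0.0149) and 0.39 over caged food livers (adjusted p = 0.00105). Against fasted livers the adjusted p was 0.0504 without fasted replicate 2 and 0.088 without refed replicate 1. Psme4, the cap linked to acetylated histones, had 0.16 and was not called (adjusted p = 0.309).

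Psmf1, an inhibitor of the core in the test tube, had 1645, 1557 and 1618 normalised read counts in refed livers of 240 min, against 1916, 1893 and 1750 in caged food livers and 1793, 1899 and 1848 in fasted livers. The refed values lay below all others, but Psmf1 was not called, with -0.20 against fasted livers (limma, adjusted p = 0.0842) and -0.20 against caged food livers (adjusted p = 0.0722). Psmg2, a chaperone that starts the alpha ring, had 723, 711 and 664 in refed livers of 240 min, against 520, 480 and 594 in caged food livers and 537, 537 and 548 in fasted livers. It rose by 0.37 ± 0.10 (SE) over fasted livers (limma, adjusted p = 0.0110), and was the only called member among 4 chaperones of the core. The called share of all genes in that comparison was 24.3%.

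Set against caged food livers of the same time, refed livers of 240 min differed in 10 of 47 members, with 9 higher and 1 lower, beside 27% of all genes called, 14.6% higher and 12.4% lower. Again the share of members was no larger than the background. Of the members, 40 had a positive log2 fold change, with a median of 0.17, against -0.0045 for all genes. Besides those named above, the ATPase Psmc5 and the scaffold subunits Psmd2 and Psmd3 of the regulatory particle were called. Psmc5 had 4877, 4826 and 3945 normalised read counts in refed livers of 240 min, against 3284, 3521 and 3698 in caged food livers. These groups did not overlap (0.37 ± 0.10 SE, limma adjusted p = 0.00752), while the fasted livers, at 3656, 3777 and 3977, reached into the refed range.

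Psmd2, which docks ubiquitin carriers, had 10437, 9872 and 8312 normalised read counts in refed livers of 240 min, against 7176, 7302 and 7459 in caged food livers, with no overlap (log2 fold change 0.38 ± 0.11 SE, limma adjusted p = 0.0149). Psmd3 had 9018, 8277 and 7320, against 6477, 6448 and 6234 in caged food livers (0.36 ± 0.12 SE, adjusted p = 0.0316). Neither was called against fasted livers. Psmd2 lost its call without refed replicate 1 or 2 (adjusted p = 0.0887 and 0.0542), and Psmd3 without either of these or any caged food replicate (0.0628 to 0.149). These comparisons share the refed libraries and are not independent of each other. Of the panel, no call was made here for Psmb5 (0.17, limma adjusted p = 0.484), Psmb8 (0.017, 0.959), Psmb9 (0.22, 0.397), Psmb10 (0.15, 0.491), Psmc4 (0.26, 0.154), Psmd11 (0.25, 0.0951), Psmd14 (0.29, 0.141) and Psme4 (0.10, 0.531).

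The third refed library of 240 min, one of those with conflicting labels, had standard subunits 0.012 above the fasted mean on the log2 scale, against 0.27 and 0.20 in the other refed libraries of that time. Without it and the first caged food library, 10 members were called higher and 1 lower against fasted livers, and the same numbers against caged food livers. Psmd9, Psmd7 and Psmd5 then had log2 fold changes of -0.73, 0.53 and 0.62 against fasted livers. The fall of Psme1 against fasted livers was lost there (limma, adjusted p = 0.0613).

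At 120 min, 1 member rose and 1 fell against fasted livers, Psmd7 and Psmd9, beside 14.1% of all genes called, 7.95% higher and 6.13% lower. Of the members, 38 had a positive log2 fold change there, with a median of 0.079, against -5.1e-04 for all genes. Against caged food livers, Psmd9 alone was called, beside 11.3% of all genes and 5.3% called lower. At 30 min, limma called 0 members against fasted livers, with 0 of 47 at an unadjusted p under 0.05, while 1.63% of all genes were called. There 9 of 47 members had a positive value, beside 49.6% of all genes. The median was -0.090 for the members and -0.0013 for all genes. No member was called between refed and caged food livers of 30 min (0 at an unadjusted p under 0.05), beside 0.276% of all genes. There 27 members had a positive value, and 4 without the libraries standing apart. The medians were 0.011 and -0.10 for the members, against 0.0014 and 0.0032 for all genes.

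**Figure D4:**
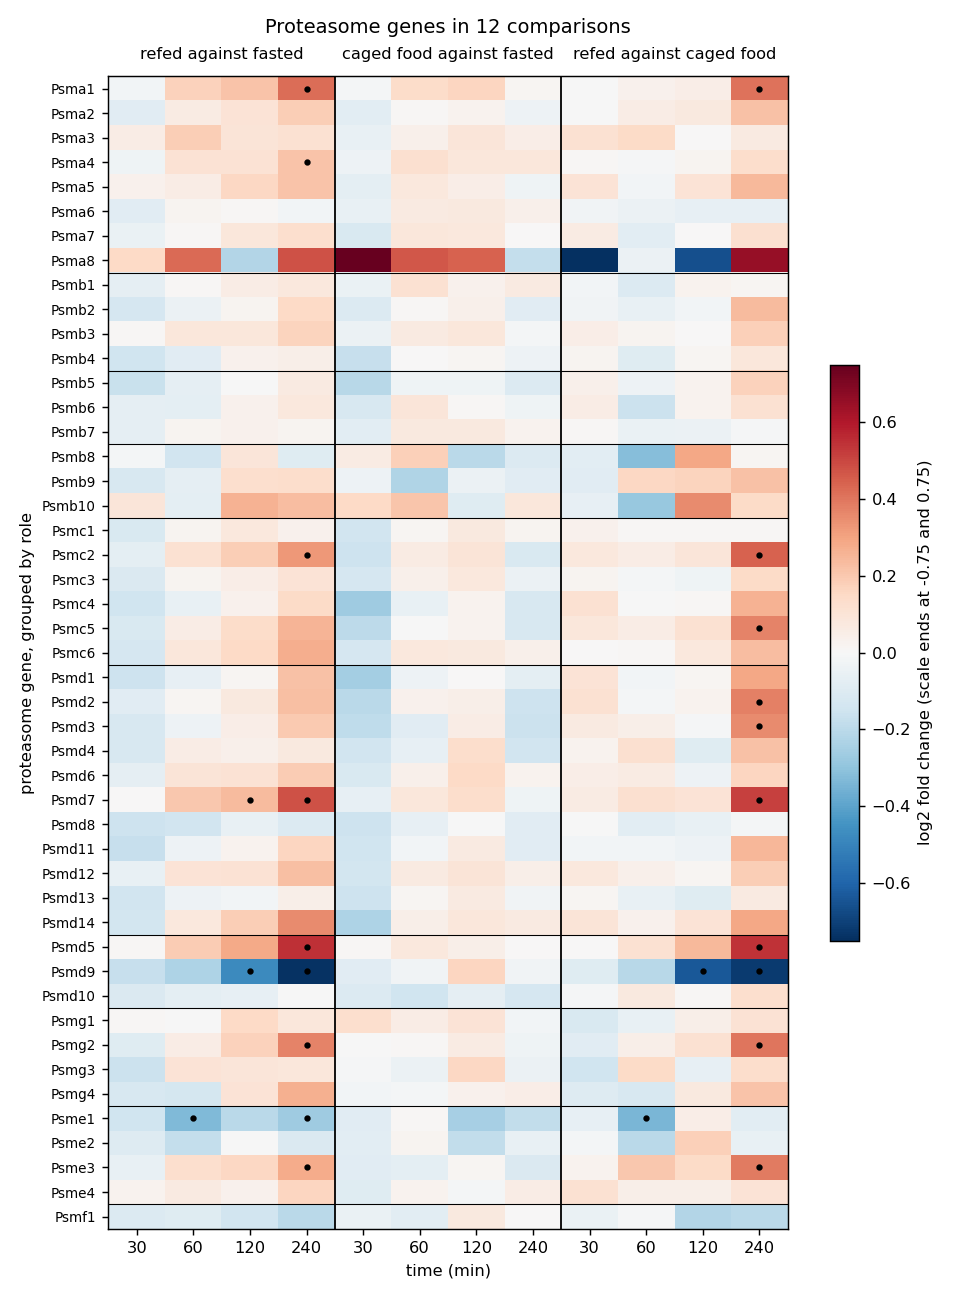
Log2 fold changes in colour for the 47 members (rows, grouped by role) at 30, 60, 120 and 240 min (columns), with refed livers set against fasted ones on the left, caged food livers against fasted ones in the middle and refed livers against caged food ones on the right. A dot marks a gene called by limma; dots lie mostly in the refed columns of 240 min and none in the caged food against fasted columns.

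Caged food livers had no called member against fasted livers, while the direction of the members' values depended on which libraries were kept. Limma called 0 of 47 members at each of 30, 60, 120 and 240 min, with 2, 0, 1 and 1 members at an unadjusted p under 0.05, and the background was as small: 0.0126%, 0.22%, 0.0377% and 0% of all genes. At 30 min, 5 members had a positive value and the median was -0.086, but without the libraries that stood apart 28 had one and the median was 0.021. At 120 min, 38 had a positive value with a median of 0.063, and 42 with a median of 0.14 without those libraries. Without the second caged food library of 120 min, 18 had one and the median was -0.022. In that library 41 of 47 members lay above every fasted library, and the standard subunits averaged 0.23 above the fasted mean on the log2 scale. How many of all genes lay above every fasted library there was not counted. At 240 min, 17 members had a positive value, with a median of -0.033. Over all genes the medians were -0.0020 at 30 min, 0.0077 at 120 min and 0.0052 at 240 min.

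Averaged over the 4 times, refed livers had 6 members higher and 2 lower than caged food livers, beside 31.3% of all genes called, 17.3% higher and 14.1% lower. Psmd9 fell by 0.41 on the log2 scale (limma, adjusted p = 1.8e-06), and Psmf1 by 0.12 (adjusted p = 0.0292), a call lost without any 1 of 5 libraries of the caged food and refed groups (adjusted p = 0.0501 to 0.0558). The call of Psma1 (0.12, adjusted p = 0.0495) was lost without any 1 of 16 of 24 libraries. Psmd7 rose by 0.20 and Psmd5 by 0.22. Without the libraries standing apart, 3 were higher and 3 lower, and Psma1, Psmc2 and Psmc5 were no longer called. The refed minus caged food difference was also tested for change over time with an F test, which called Psmd9 and Psmd7, beside 9.97% of all genes.

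Promoters are shown for the chaperones that moved in opposite directions, Psmd9 and Psmd5, and for Psma1, the alpha ring subunit that rose, so that their letters can be compared. They are RefSeq sequences of GRCm38.p6 from 250 bases before to 50 after the gene start, at chr5:123227940-123228239 on the plus strand, chr2:34870913-34871212 on the minus strand and chr7:114276067-114276366 on the minus strand, each 5′ to 3′ along the gene. The RefSeq starts of Psmd9 and Psmd5 lie inside the GENCODE gene models, whose outermost starts are farther upstream, so positions here are counted from the RefSeq start. Capitals mark TGACNNNGC, the core of the element that NFE2L1 and NFE2L2 bind, and CCAAT, the box of NF-Y, on either strand.
Psmd9: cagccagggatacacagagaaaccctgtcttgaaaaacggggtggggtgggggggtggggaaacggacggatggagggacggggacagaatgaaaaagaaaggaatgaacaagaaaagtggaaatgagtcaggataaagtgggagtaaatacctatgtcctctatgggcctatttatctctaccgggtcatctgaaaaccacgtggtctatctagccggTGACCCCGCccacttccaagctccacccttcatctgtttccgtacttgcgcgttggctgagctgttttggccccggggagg
Psmd5: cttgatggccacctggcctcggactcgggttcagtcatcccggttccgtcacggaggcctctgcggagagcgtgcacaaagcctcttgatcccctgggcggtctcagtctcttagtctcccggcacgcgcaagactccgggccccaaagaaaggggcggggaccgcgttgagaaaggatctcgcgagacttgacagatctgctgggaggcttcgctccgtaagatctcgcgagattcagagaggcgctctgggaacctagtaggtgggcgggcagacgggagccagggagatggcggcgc
Psma1: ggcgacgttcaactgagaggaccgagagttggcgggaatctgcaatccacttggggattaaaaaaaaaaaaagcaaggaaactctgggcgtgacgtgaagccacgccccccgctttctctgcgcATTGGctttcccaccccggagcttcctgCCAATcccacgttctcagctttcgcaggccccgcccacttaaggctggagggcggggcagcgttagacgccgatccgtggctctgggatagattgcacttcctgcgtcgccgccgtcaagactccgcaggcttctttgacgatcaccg

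Psmd9 held 1 TGACNNNGC, starting 31 bases before the RefSeq gene start, Psmd5 held neither motif, and Psma1 held 2 CCAAT boxes, the first on the other strand. Of 48 symbols, Psmb11 included, 40 had a promoter in the table. TGACNNNGC was in 6 of 40, which is 15%, beside 14% of 27025 promoters, and CCAAT in 14, or 35%, beside 41.1%. GAANNTTC, the core of the heat shock element, and TTCNNNGAA, the interferon-responsive GAS element, were in 3 promoters each, or 7.5%, beside 9.04% and 9.55% of all. These shares, which count Psmb11, were near those of all genes.

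Other genes of the pathway were taken from lists. Of 22 proteasome partners tested, 9 were called in refed livers of 240 min against fasted livers, 8 of them higher, beside 24.3% of all genes called and 12.9% called higher. Against caged food livers 7 were called, all higher, beside 27% and 14.6% of all genes. Ubqln4, a carrier of ubiquitinated proteins, had 3112, 3034 and 2627 normalised read counts in refed livers, against 1973, 1928 and 1806 in fasted livers, with no overlap (log2 fold change 0.62, limma adjusted p = 8.8e-05). Usp14, a deubiquitinase bound to the regulatory particle, rose by 0.41 (adjusted p = 0.00768), and the ubiquitin receptor Adrm1 by 0.39 (adjusted p = 0.0331). Rad23b, another carrier, rose by 0.34 on the log2 scale (adjusted p = 0.00713). Pomp, a chaperone that matures the core, had 0.10 and was not called (limma, adjusted p = 0.491).

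NFE2L1 activates proteasome genes when the proteasome is inhibited. The list of its pathway holds genes that help it and genes that remove or oppose it. Of 17 tested, 5 rose and 3 fell in refed livers of 240 min against fasted livers. Over all genes 12.9% were called higher and 11.4% lower. The largest change was in Syvn1, a ubiquitin ligase of the endoplasmic reticulum, with 17263, 14661 and 9324 normalised read counts in refed livers, against 3592, 4050 and 4015 in fasted livers (log2 fold change 1.78, limma adjusted p = 2.0e-07). Nfe2l1 itself had -0.030 and was not called (adjusted p = 0.853). Of 20 interferon and antigen processing genes, 6 rose and none fell at 240 min over fasted livers, among them the GTPase gene Igtp by 1.05 (limma, adjusted p = 9.0e-04). Of all genes, 24.3% were called there, and whether this list and the immune subunits differ was not tested.

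Over the 9 group means, the mean of the 9 members called at 240 min against fasted livers ran most alike with Iars (Pearson r 0.981), Sec13 (0.976), Rad23b (0.975), Eif3b (0.973), Cops3 (0.969) and Rars (0.969), of 11156 genes compared. Iars and Rars charge transfer RNA, Sec13 coats vesicles, and Eif3b is a translation initiation factor. The profile mixes 7 members that rose with 2 that fell, and the points share libraries.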

How the data were processed

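Polyadenylated liver RNA was sequenced with a strand-specific kit, per the labels' protocols. Reads were aligned to mm10 (GRCm38) with STAR 2.4.0a and counted with featureCounts 1.4.5-p1 of Subread, per the submitters' processing notes. The deposited table holds a score per gene and library: read counts that the authors scaled per library and rounded to whole numbers, so no count test was used. The scaling method and the raw depth are not given in the sources used here. The design text names more samples than these 27, and the others are not used here.

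Genes reaching 10 in 3 or more libraries entered the fit on log2(value + 1) with limma 3.58.1 (trend, R 4.3.3), fitted to 9 group means of all libraries. Benjamini-Hochberg adjustment ran over all 15932 genes of a comparison, with calls under 0.05. Replicates are libraries, so p-values measure the spread between them. Exon lengths and coordinates came from GENCODE M21 (98.8% of identifiers matched), and promoters from RefSeq. Figures used Python 3.11.15 and matplotlib 3.10.9. The fit was also run on simulated data. Those data held no outlying libraries, no genes moving together and no label conflicts, so they do not vouch for the calls here. Some genes that the lists hold are not reported here. The members and lists were chosen with earlier results of these data known. Members with values were, per comparison, up to 8 called ones of lowest adjusted p, a fixed panel of 10, the highest and lowest by level, and those moving against their role. Alternatives left out the filter, single replicates, libraries of conflicting labels or those standing apart, regrouped by treatment label, fitted only the 2 groups at hand, added a replicate block, set the pseudocount to 5 or quantile-normalized the values.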

Additional observations from a re-analysis of the deposited data

Results flagged for a closer look

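The refed minus caged food difference changed over the 4 times for Psmd7 (limma F test over all genes, adjusted p = 0.0199) and for Psmd9 (adjusted p = 0.0103). For Psmd7 the refed minus caged food difference was largest at 240 min, where refed livers had 4209 to 5074 normalised read counts and caged food livers 3117 to 3235. For Psmd9 it was -0.64 at 120 min and -0.72 at 240 min on the log2 scale. The call of Psmd7 was lost without the first refed library of 240 min (adjusted p = 0.0938) or the first caged food library of that time (0.0611). In this test 6 members were called without the first caged food library of 30 min, and 4 without the third refed library of 240 min or the third caged food library of 60 min.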

How the results depend on the processing

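Called counts were 9 of 47 for refed livers of 240 min against fasted ones and 10 against caged food ones. Grouped by the treatment label, these were 0 and 0, the mean over the times had 1 (8 as reported) and the F test 0 (2 as reported). With only the groups compared, the counts were 0 at 60 min against fasted livers and 0 against caged food livers (1 each as reported), and 4 at 120 min against fasted livers (2 as reported). That last count was 1 without the filter and 1 with the replicate block, which called 8 at 240 min against fasted livers and 10 against caged food ones. Without the libraries standing apart, the count was 2 at 120 min against caged food livers (1 as reported) and 6 in the F test. Leaving out each replicate gave 1 to 2 at 60 min, 1 to 2 at 120 min and 5 to 11 at 240 min against fasted livers; 0 to 4 at 60 min and 8 to 12 at 240 min against caged food livers; 6 to 10 for the mean; and 1 to 6 in the F test. Of 624 alternative values for named members, 524 kept direction and side of the threshold, 100 lost the call and 0 reversed. The call was lost most often for Psma4 at 240 min against fasted livers (10 of 13), Psma1 averaged over the times (21 of 32) and Psmd7 at 120 min against fasted livers (7 of 11); Psmc2 and Psme1 against fasted livers and Psmd3 against caged food livers lost it at 240 min in 7, 6 and 7 of 13. Replicate numbers did not pair the libraries: over 108 pairs of the same number the mean residual correlation was -0.00944, and 8 of 27 libraries were closest to one of the same number. The cause of these changes was not tested.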
